A study of Mus musculus with 2 samples.

Results

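The genes described here are 49 genes of glucose transport, glycolysis, pyruvate and lactate handling, glycogen, insulin input and the hypoxia response, of 20811 genes named on the array. They were taken by name, as every non-control probe whose gene name in both scanner outputs was one of the 49 symbols, which gave 84 of 41174 probes. Each of 2 two-colour Agilent arrays carried RNA of mouse keratinocytes in the Cy5 channel that the labels call CHUK-LoxP mutant and describe as deleted for that gene, against RNA of wild-type mouse keratinocytes in the Cy3 channel. The Cy5 channel is called Chuk-deleted here after its label alone. The arrays are replicates 1 and 2 of that single comparison. Chuk encodes IKKα, one of the kinases that activate NF-κB signalling. The labels give neither the Cre driver nor the animals' age, the culture conditions or the oxygen supply, and they do not say whether the RNAs of the 2 arrays came from separate cultures. For that reason the p-values speak to the spread between 2 arrays only, and that spread may be technical. No dye swap was labelled, so dye and genotype cannot be told apart in any ratio.

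Cells take up glucose through facilitative transporters, trap it with hexokinases and break it down through glycolysis, and the resulting pyruvate is either burnt in mitochondria or reduced to lactate and exported. Hypoxia-inducible factors, which prolyl hydroxylases mark for destruction while oxygen is present, bind short DNA motifs and switch on many of these genes together with genes for blood vessel growth, acid handling and matrix synthesis. In the epidermis, which holds no blood vessels of its own, basal keratinocytes are known to use GLUT1, the product of Slc2a1, as their main glucose transporter.

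The number of arrays limits the precision, and the median spot intensity ranged from 171.5 to 218 in Cy5 and from 95.2 to 110 in Cy3. Both probes named Chuk gave the higher signal in the Chuk-deleted channel, with log2 ratios of 0.73 to 0.93 over arrays and probes, which goes against the label unless the probes lie outside the deleted part, and that was not tested. Every direction given here rests on the channel labels. Keratinocyte markers were present: all 7 basal markers were tested, of which 6 rose and 1 fell, or 2 were higher and 3 lower once the arrays were lowered by their spike-in controls, and all 7 suprabasal markers were tested and fell. Of the suprabasal markers, 4 were well above background in both channels on both arrays. In bulk RNA, fewer cells of a type and less RNA per cell cannot be told apart.

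Values are loess-normalised intensities per channel, log2 ratios of the Chuk-deleted over the wild-type channel, and the mean ratio with the SD of the arrays (n = 2). Rose and fell mean higher or lower in the Chuk-deleted channel with an adjusted p under 0.05 in limma's moderated fit, with Benjamini-Hochberg adjustment over all 23519 tested probes. A gene stands for its brightest tested probe, which was chosen anew under each other background, scaling, filter or outlier setting. Of the 49 genes, 48 were tested. Of these, 24 rose (50%), 10 fell (20.8%) and 14 did not pass. Over all 13554 tested genes, 32.7% rose and 28.4% fell, so 61.1% passed in either direction, and the 70.8% of the members that passed is to be read against that. The counts given below for smaller groups of genes are to be read against the same shares. The split of the members depends on how the arrays are scaled. Centring each array on its median without loess moved the median of all genes by 0.53 and gave 40 members higher and 4 lower, beside 10138 higher and 979 lower of all genes. Lowering the loess values by the mean of the spike-in controls moved it by -0.76 and gave 4 members higher and 39 lower, beside 266 higher and 12355 lower of all genes.

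The median mean log2 ratio of the 48 members was 0.15, against 0.02 over all tested genes, and 15 of them (31.2%) lay at least 0.5 from 0, against 18.9% of all tested genes. These are descriptions with no test. With all tested probes of a gene averaged the members' median was 0.0503, against 0.02 over all tested genes, and it was 0.69 under median centring and -0.61 after the spike-in correction. Members repeated well between arrays. The sign was the same on both arrays for 44 of 48, the median SD was 0.05 and the largest was 0.26. Across the members, ratios on the 2 arrays had a Pearson correlation of 0.99, and across all tested genes of 0.96, a description over genes that share the same pair of arrays. At least 2-fold apart on both arrays were 2 members that were higher, Slc2a4 and Slc16a3, and 1 that was lower, Ndrg1. Of all tested genes 1.48% were at least 2-fold higher on both arrays and 3.22% at least 2-fold lower. On array 2 alone 4 members were higher, with Slc2a1 and Car12 added, and 2 lower, with Aldoc added. The share of all genes on array 2 alone is not given.

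**Figure D1:**
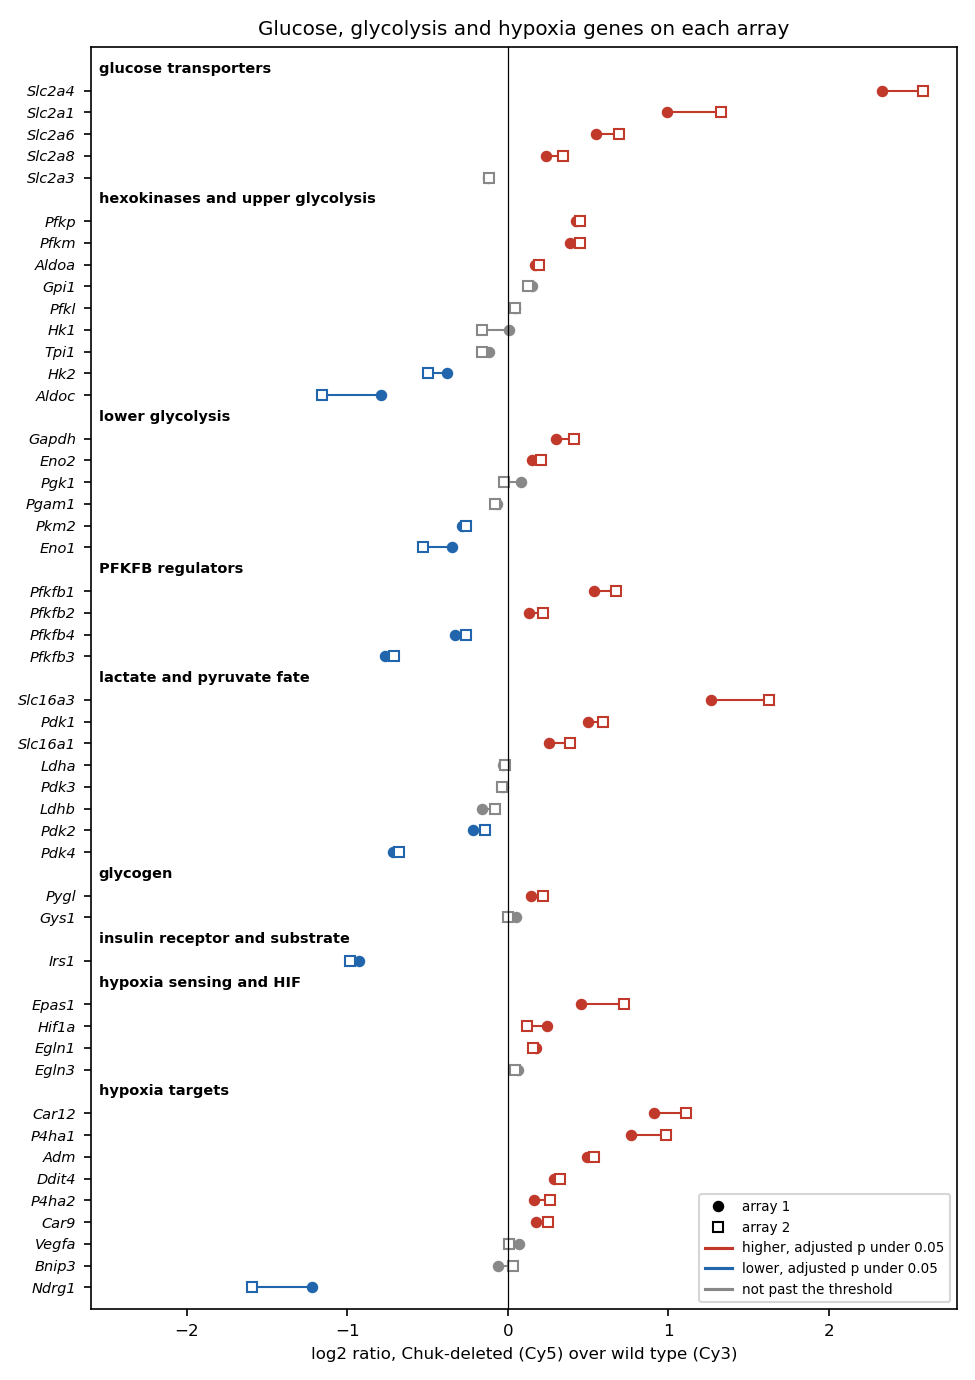
Log2 ratio of the Chuk-deleted over the wild-type channel on array 1 (circles) and array 2 (open squares) for the 48 tested members, grouped by role, with colours for the limma call. Slc2a4 stands farthest to the right at 2.33 and 2.59 and Ndrg1 farthest to the left at -1.22 and -1.59, while most glycolytic enzymes lie close to 0.

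Hypoxia-inducible factors bind DNA at a short core, ACGTG or GCGTG, and promoters of genes that moved far or stayed still are printed to show whether these letters stand there. The sequences are RefSeq promoter windows of GRCm38.p6, from 250 bases before to 50 after the annotated start, 5′ to 3′ on the gene's strand. Capitals mark ACGTG and GCGTG read on either strand, where CACGT and CACGC are their reverse complements and CACGTG holds ACGTG on both strands. The window of Slc16a3, which rose, lies at chr11:120948817-120949116 on the plus strand and holds 2 matches to ACGTG.
Slc16a3: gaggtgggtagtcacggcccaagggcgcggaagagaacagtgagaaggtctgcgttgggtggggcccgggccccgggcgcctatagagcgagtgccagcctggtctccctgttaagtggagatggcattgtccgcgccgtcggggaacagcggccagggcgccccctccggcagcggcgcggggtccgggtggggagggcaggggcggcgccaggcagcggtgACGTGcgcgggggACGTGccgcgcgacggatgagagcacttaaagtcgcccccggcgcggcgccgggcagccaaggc
The window of Slc2a1, which rose, lies at chr4:119108495-119108794 on the plus strand and holds 1 match to each.
Slc2a1: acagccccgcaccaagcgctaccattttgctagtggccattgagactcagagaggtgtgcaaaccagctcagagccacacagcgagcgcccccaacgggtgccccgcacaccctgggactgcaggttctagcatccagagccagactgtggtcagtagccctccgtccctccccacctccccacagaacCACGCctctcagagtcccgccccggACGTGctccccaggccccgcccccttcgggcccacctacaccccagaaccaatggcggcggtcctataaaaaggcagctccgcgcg
The window of Car12, which also rose, lies at chr9:66713436-66713735 on the plus strand and holds no match.
Car12: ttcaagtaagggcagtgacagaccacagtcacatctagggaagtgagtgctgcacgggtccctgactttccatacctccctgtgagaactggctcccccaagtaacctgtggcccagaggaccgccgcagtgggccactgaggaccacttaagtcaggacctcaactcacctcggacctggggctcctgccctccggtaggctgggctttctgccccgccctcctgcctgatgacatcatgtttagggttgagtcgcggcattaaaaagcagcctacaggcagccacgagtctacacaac
The window of Irs1, which fell, lies at chr1:82291390-82291689 on the minus strand and holds 2 matches to ACGTG, from a single CACGTG, and 1 to GCGTG.
Irs1: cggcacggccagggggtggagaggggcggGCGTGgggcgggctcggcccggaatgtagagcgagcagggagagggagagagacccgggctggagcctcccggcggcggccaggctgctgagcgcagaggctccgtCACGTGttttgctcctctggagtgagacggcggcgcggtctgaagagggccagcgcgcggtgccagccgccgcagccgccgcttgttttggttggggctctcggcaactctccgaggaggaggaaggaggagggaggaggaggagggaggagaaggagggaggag
The first of the 2 windows of Ldha, whose brightest probe did not pass, lies at chr7:46845554-46845853 on the plus strand and holds 5 matches to ACGTG and 2 to GCGTG.
Ldha: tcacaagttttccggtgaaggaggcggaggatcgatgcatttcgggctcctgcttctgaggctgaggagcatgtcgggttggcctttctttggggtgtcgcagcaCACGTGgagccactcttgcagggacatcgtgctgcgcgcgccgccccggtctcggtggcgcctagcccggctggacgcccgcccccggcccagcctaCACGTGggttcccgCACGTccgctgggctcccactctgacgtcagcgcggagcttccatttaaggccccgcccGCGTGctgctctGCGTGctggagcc

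Matches were common in the members' promoters whichever way the genes went. Of 44 members with a window in the table, the windows of 39 held at least 1 match, in 20 of 22 that rose (90.9%), 9 of 9 that fell (100%) and 10 of 13 that did not pass (76.9%). Counted over windows, ACGTG stood in 32 of 64 (50%), against 19.6% of all 32851 windows, and GCGTG in 36 (56.2%), against 32.4%. At least 1 of the motifs stood in 49 windows (76.6%), against 43.8% of all. A gene with several windows counted if any of them held a match, and no like share over all genes is given. The members were chosen in part as hypoxia response genes, so the windows' surplus of these letters is not independent of that choice. A match is a description of these letters and not a bound site. Slc2a3, Slc2a4, Ndrg1, Epas1 and Insr were not analysed here for these letters.

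Glucose transporters held the highest ratio of all members. Of 5 tested, 4 rose and none fell, with a median of 0.62, while all 5 were higher under median centring and 2 were higher and 2 lower after the spike-in correction. Slc2a4 encodes GLUT4, the insulin-responsive transporter of fat and muscle. Its normalised intensity was 10420 and 11070 in the Chuk-deleted channels, against 2072 and 1845 in the wild-type channels. Both Chuk-deleted values lay far above both wild-type values. The log2 ratio was 2.33 and 2.59 (mean 2.46 ± 0.18, 5.49-fold higher, adjusted p = 1.63e-05), and it ranked 9th from the top of 13554 genes, or 9th from the bottom were the channels exchanged.

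The Slc2a4 probe was spotted 10 times on each array, which gives the error within an array. On array 1 its spots ran from 2.29 to 2.40 (SD 0.034), and on array 2 from 2.54 to 2.65 (SD 0.032). The 2 sets of spots did not overlap, so the arrays differed by more than spots of one array did, by an amount that is small beside the ratio itself. Gpi1, Pgk1 and Vegfa were spotted 10 times as well. Their array means lay at 0.15 and 0.12 for Gpi1, at 0.08 and -0.02 for Pgk1, and at 0.07 and 0.01 for Vegfa. None of these 3 passed the threshold.

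**Figure D2:**
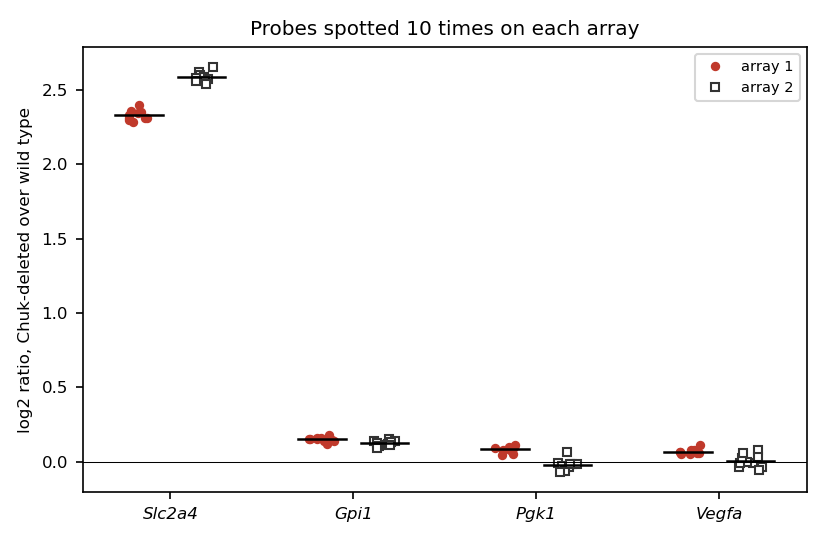
Log2 ratio of every spot of the 4 member probes that were printed 10 times per array, for array 1 (filled circles) and array 2 (open squares), with a bar at each mean. The Slc2a4 spots lie between 2.29 and 2.65 and the spots of Gpi1, Pgk1 and Vegfa between -0.07 and 0.18.

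Since GLUT4 is best known from fat and muscle, markers of these tissues are given beside it. Of 7 adipocyte markers, 1 was tested. That was Fabp4, a fatty acid carrier, at 0.21 (adjusted p = 0.0138), with 6021 and 6164 in the Chuk-deleted channels, against 5226 and 5344 in the wild-type channels. The adipocyte genes Adipoq, Plin1, Cfd, Lep, Retn and Cidec were not well above background in either channel on both arrays. Of 7 skeletal muscle markers 3 were tested. Acta1, skeletal actin, rose by 1.67 ± 0.56, the muscle light chain Mylpf fell by 0.51, and Actn3 did not pass (-0.02). Ckm, Myh1, Myh4 and Tnnt3 were not well above background. Summed over the tested muscle markers, intensity was 1247 and 2330 in the Chuk-deleted channels, against 934 and 1014 in the wild-type channels. The part of such cells in the Slc2a4 ratio was not tested.

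Slc2a1, the gene of GLUT1, had 135200 and 88450 in the Chuk-deleted channels, against 67980 and 35170 in the wild-type channels. Within each array the Chuk-deleted value was the higher, and both exceeded both wild-type values. The log2 ratio was 0.99 and 1.33 (mean 1.16 ± 0.24, 2.24-fold higher, adjusted p = 0.00012). Slc2a6, which encodes a transporter of lysosomal membranes, had 368 and 501 in the Chuk-deleted channels, against 251 and 310 in the wild-type channels (mean 0.62 ± 0.10, adjusted p = 0.000277). The lowest Chuk-deleted value was above the highest wild-type value, and the order turned to -0.14 after the spike-in correction. Slc2a8, an intracellular transporter, gave opposite calls from its probes. Its brighter probe had 1202 and 1269 in the Chuk-deleted channels, against 1019 and 1002 in the wild-type channels, and rose by 0.29 ± 0.07 (adjusted p = 0.00461), and its dimmer probe fell by 0.27 (adjusted p = 0.00442), and their average did not pass. Slc2a3, which encodes the high-affinity transporter GLUT3, did not pass at -0.12 (adjusted p = 0.0885), with 477 and 407 in the Chuk-deleted channels, against 519 and 441 in the wild-type channels, whose ranges overlapped.

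**Figure D3:**
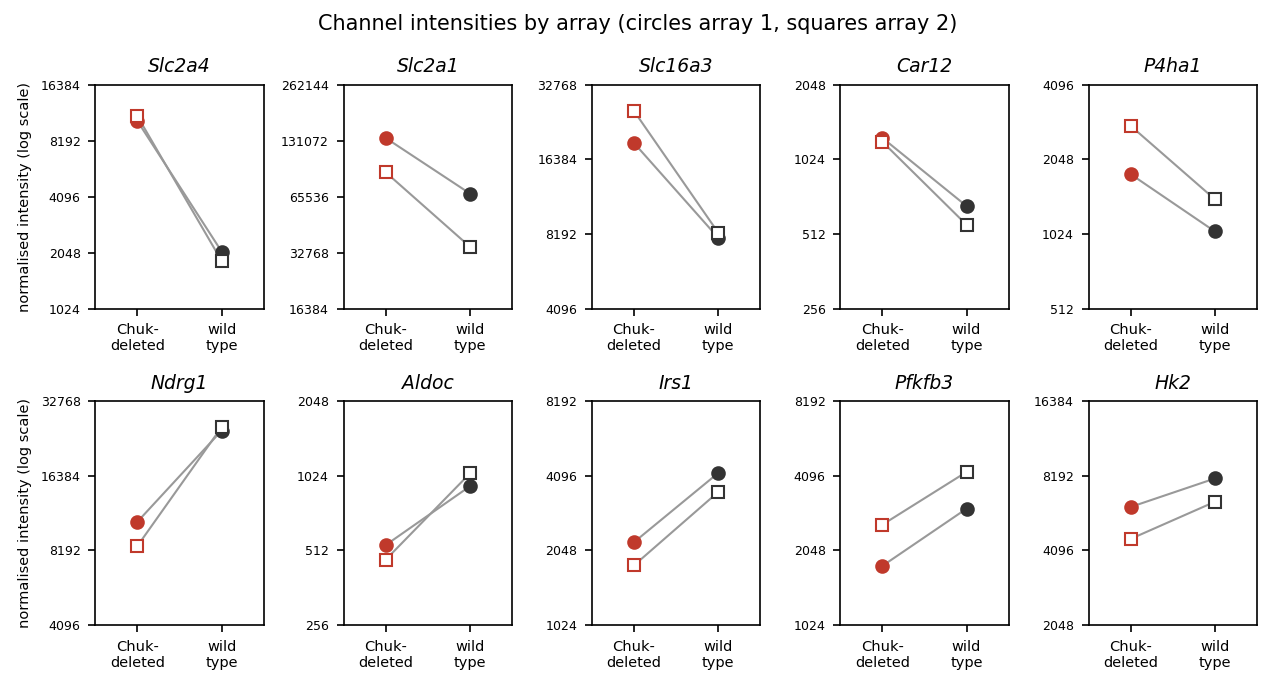
Normalised intensity (log scale) in the Chuk-deleted channel (left) and the wild-type channel (right) of array 1 (circles) and array 2 (squares), for 10 members chosen after their values were seen. Lines join the channels of one array. Slc2a4, Slc2a1, Slc16a3, Car12 and P4ha1 slope down to the wild type on both arrays, and Ndrg1, Aldoc, Irs1, Pfkfb3 and Hk2 slope up.

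The glycolytic enzymes moved little beside the glucose transporters. Of 15 tested, 5 rose, 4 fell and 6 did not pass, with a median of 0.03, and 14 lay within 0.5 of 0. These counts of calls were close to the shares over all tested genes, of which 32.7% rose and 28.4% fell. Of all tested genes 18.9% lay at least 0.5 from 0. For the enzymes, median centring gave 13 higher and 1 lower. The spike-in correction gave none higher and all 15 lower, in step with the median of all genes. Several of these enzymes, among them Gapdh, Pgk1, Eno1, Ldha and Tpi1, have near-identical processed copies elsewhere in the mouse genome that a probe may also bind, so their values are uncertain to that extent.

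In the upper part of the pathway, Hk2, the inducible hexokinase that traps glucose in the cell, fell. Its intensity was 6126 and 4555 in the Chuk-deleted channels, against 7980 and 6429 in the wild-type channels. It was lower on each array and the ranges of the groups did not overlap, and the log2 ratio was -0.38 and -0.50 (mean -0.44 ± 0.08, adjusted p = 0.000907). Under median centring it stood at 0.26. Hk1, the constitutive hexokinase, did not pass on its brightest probe (-0.08, adjusted p = 0.310), while its 3 other tested probes fell, at -0.20, -0.27 and -0.41. Gpi1, glucose phosphate isomerase, did not pass, with 45490 and 45110 in the Chuk-deleted channels, against 40930 and 41390 in the wild-type channels (0.14, adjusted p = 0.0565).

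Phosphofructokinase makes the committed step of glycolysis and has 3 subunit genes. The muscle form Pfkm had 1628 and 1951 in the Chuk-deleted channels, against 1245 and 1429 in the wild-type channels (mean 0.42 ± 0.04, adjusted p = 0.000848), with no overlap. The platelet form Pfkp had 2209 and 2384 in the Chuk-deleted channels, against 1643 and 1746 in the wild-type channels (mean 0.44 ± 0.02, adjusted p = 0.000648). A second Pfkp probe gave a larger ratio, from 1199 and 1074 in the Chuk-deleted channels, against 430 and 350 in the wild-type channels (mean 1.55 ± 0.10, adjusted p = 2.46e-05), and the third gave 0.24. All 3 Pfkp probes rose, but they disagree on the size. The liver form Pfkl did not pass (0.05, adjusted p = 0.472). The spike-in correction turned Pfkm to -0.345 and Pfkp to -0.33.

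Among the aldolases, which split the 6-carbon sugar, Aldoc fell and Aldoa rose slightly. Aldoc, the form best known from brain, had 538 and 470 in the Chuk-deleted channels, against 928 and 1046 in the wild-type channels. Both Chuk-deleted values lay below both wild-type values, at log2 ratios of -0.79 and -1.16 (mean -0.97 ± 0.26, 1.96-fold lower, adjusted p = 0.000262), and its other tested probe fell by 0.69. Aldoa, the form of muscle and most other cells, had 89510 and 134300 in the Chuk-deleted channels, against 79660 and 117200 in the wild-type channels (0.18, adjusted p = 0.0219). The ranges of the groups overlapped because the arrays differed in brightness, the other Aldoa probe stood at -0.04 and did not pass, and the software's own ratio did not pass for Aldoa either. Tpi1, triose phosphate isomerase, did not pass, with 24630 and 29850 in the Chuk-deleted channels, against 26750 and 33310 in the wild-type channels (-0.14, adjusted p = 0.0567).

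In the lower part, Eno1 and Pkm2 fell. Eno1, the enolase of most tissues, had 2350 and 1792 in the Chuk-deleted channels, against 2990 and 2588 in the wild-type channels (mean -0.44 ± 0.13, adjusted p = 0.00145), without overlap. Pkm2, pyruvate kinase of proliferating and many adult cells, had 10440 and 21050 in the Chuk-deleted channels, against 12710 and 25210 in the wild-type channels (mean -0.27 ± 0.02, adjusted p = 0.00448). For Pkm2 the ranges overlapped between arrays, and it was lower within each. Both changed sign under median centring, Eno1 to 0.20 and Pkm2 to 0.48, and Pkm2 did not pass with that centring brought to the loess median. Pgk1, which makes the first ATP of the pathway, had 48800 and 31930 in the Chuk-deleted channels, against 46020 and 32390 in the wild-type channels, and it did not pass (0.03, adjusted p = 0.640). Pgam1, phosphoglycerate mutase, did not pass either, with 43940 and 38380 in the Chuk-deleted channels, against 45930 and 40530 in the wild-type channels (-0.07, adjusted p = 0.266).

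Eno2, the neuronal enolase, rose by 0.18 (adjusted p = 0.0254), with 248 and 304 in the Chuk-deleted channels, against 223 and 264 in the wild-type channels, whose ranges overlapped. This call was lost with the smaller normexp offset, with the software's own ratio and with median centring brought to the loess median of all genes. Gapdh, glyceraldehyde phosphate dehydrogenase, is often used as a loading control. Its only probe had 247 and 290 in the Chuk-deleted channels, against 200 and 218 in the wild-type channels (mean 0.36 ± 0.08, adjusted p = 0.00205). That probe was dim, at percentile 20.1 of the intensity of all tested genes. Pgk1 lay at 97.5, Pgam1 at 97.7, Pkm2 at 93, Eno1 at 66.6 and Eno2 at 21.8. Whether the probe reports the main Gapdh transcript was not tested. Gapdh turned to -0.41 after the spike-in correction and did not pass under median centring brought to the loess median of all genes.

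The PFKFB enzymes set the level of fructose 2,6-bisphosphate, the activator of phosphofructokinase, and all 4 passed, in both directions. Pfkfb3, the form with the strongest kinase activity, had 1772 and 2598 in the Chuk-deleted channels, against 3016 and 4241 in the wild-type channels. It was lower on both arrays, at log2 ratios of -0.77 and -0.71 (mean -0.74 ± 0.04, 1.67-fold lower, adjusted p = 0.00011), and both Chuk-deleted values lay below both wild-type values. Its other tested probe fell by only 0.17 (adjusted p = 0.0308), and under median centring the brightest probe stood at -0.09 and did not pass. Pfkfb1, the form known from liver and muscle, had 810 and 928 in the Chuk-deleted channels, against 558 and 580 in the wild-type channels (mean 0.61 ± 0.10, adjusted p = 0.000303). Pfkfb4, known from testis and from hypoxic cells, fell by 0.29 ± 0.05 (adjusted p = 0.00372), with 1223 and 1451 in the Chuk-deleted channels, against 1538 and 1735 in the wild-type channels. Pfkfb2, known from heart, rose on its brightest probe, with 564 and 601 in the Chuk-deleted channels, against 515 and 516 in the wild-type channels (0.18, adjusted p = 0.0297), but of its 3 other tested probes 2 fell, and the call was lost with the smaller normexp offset, the software's ratio and median centring brought to the loess median. Median centring gave 3 of these genes higher and none lower, and the spike-in correction none higher and 3 lower.

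Of the 8 genes for the fate of pyruvate and lactate, 3 rose, 2 fell and 3 did not pass, while median centring gave 6 higher and 1 lower and the spike-in correction 1 higher and 6 lower. Slc16a3 encodes MCT4, the exporter of lactate in strongly glycolytic cells. It had 19030 and 25610 in the Chuk-deleted channels, against 7891 and 8277 in the wild-type channels. Both Chuk-deleted values lay far above both wild-type values, at log2 ratios of 1.27 and 1.63 (mean 1.45 ± 0.25, 2.73-fold higher, adjusted p = 7.08e-05). It ranked 88th from the top of all tested genes, or 88th from the bottom were the channels exchanged. Slc16a1, the gene of the widespread lactate transporter MCT1, rose by 0.32 ± 0.10 (adjusted p = 0.00367), with 7950 and 16290 in the Chuk-deleted channels, against 6664 and 12420 in the wild-type channels, whose ranges overlapped. Of its 2 other tested probes, 1 rose by 0.41 and the dimmer fell by 0.33, so the probes disagree, and with all of them averaged Slc16a1 did not pass.

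Ldha, the lactate dehydrogenase subunit that favours lactate production, was close to equal. It had 85920 and 63110 in the Chuk-deleted channels, against 87870 and 63830 in the wild-type channels (-0.02, adjusted p = 0.700). Its other tested probe fell by 0.29 (adjusted p = 0.00362). Ldhb, the subunit that favours pyruvate, had 9860 and 10060 in the Chuk-deleted channels, against 11030 and 10620 in the wild-type channels, and did not pass (-0.12, adjusted p = 0.0965).

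The pyruvate dehydrogenase kinases switch off entry of pyruvate into the mitochondrial cycle, and their genes went separate ways. Pdk1, a known hypoxia target, had 501 and 458 in the Chuk-deleted channels, against 354 and 303 in the wild-type channels (mean 0.55 ± 0.07, adjusted p = 0.000344). All Chuk-deleted values lay above all wild-type values, and after the spike-in correction it stood at -0.215. Pdk4, the starvation-induced form, had 80.2 and 87.6 in the Chuk-deleted channels, against 132 and 140 in the wild-type channels. It was not well above background in the Chuk-deleted channel on either array, so it was at least 1.62-fold lower (mean -0.70 ± 0.03, adjusted p = 0.000124). The bound sets the mean of the bright channel against the dim signal, or against the lowest signal that counts as well above background where that is the higher, and it is open to dye bias. Pdk2, the widespread form, fell by 0.18 (adjusted p = 0.0275), with 96.2 and 136 in the Chuk-deleted channels, against 112 and 149 in the wild-type channels, a call that was lost under median centring, and Pdk3 did not pass (-0.03, adjusted p = 0.609).

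Insulin raises glucose uptake through its receptor and the adaptor IRS1. Irs1 fell, with 2209 and 1782 in the Chuk-deleted channels, against 4201 and 3523 in the wild-type channels. Both Chuk-deleted values lay far below both wild-type values, at log2 ratios of -0.93 and -0.98 (mean -0.96 ± 0.04, 1.94-fold lower, adjusted p = 5.29e-05), and its other tested probe fell by 0.33. The probe named Insr, the receptor, was not well above background and was not tested. A probe that the files name otherwise and whose accession belongs to Insr in RefSeq fell by 0.48 ± 0.14 (adjusted p = 0.00111), and it is not among the members. Of the glycogen genes, Gys1, glycogen synthase of muscle and most tissues, did not pass (0.03, adjusted p = 0.696). Pygl, liver glycogen phosphorylase, rose by 0.18 (adjusted p = 0.0239), with 1066 and 1161 in the Chuk-deleted channels, against 962 and 995 in the wild-type channels, and this call was lost with the smaller normexp offset and with the software's own ratio.

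Among the sensors and factors of the hypoxia response, 3 of 4 rose, Epas1 by 0.59 and the others by under 0.2, all 4 were higher under median centring, and none was higher and 3 were lower after the spike-in correction. Hif1a, the subunit HIF-1α, which is mainly controlled at the protein level, had 2698 and 1995 in the Chuk-deleted channels, against 2281 and 1836 in the wild-type channels (mean 0.18 ± 0.09, adjusted p = 0.0323). The ranges overlapped, and it did not pass with the smaller normexp offset or with the software's own ratio. Epas1, the gene of HIF-2α, had 233 and 216 in the Chuk-deleted channels, against 170 and 130 in the wild-type channels, with the wild-type channel well above background on 1 of 2 arrays (mean 0.59 ± 0.19, adjusted p = 0.000824). With the software's own ratio Epas1 stood at 1.17. Egln1, the main oxygen-sensing prolyl hydroxylase, rose on its brighter probe, with 877 and 515 in the Chuk-deleted channels, against 778 and 461 in the wild-type channels (0.17, adjusted p = 0.0295), and fell on the dimmer one (-0.15, adjusted p = 0.0435). Its call was lost with the smaller normexp offset, the software's ratio, median centring brought to the loess median and all probes averaged. Egln3, a hydroxylase that is itself induced by hypoxia, did not pass, with 693 and 460 in the Chuk-deleted channels, against 664 and 445 in the wild-type channels (0.05, adjusted p = 0.385).

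Of the 9 hypoxia targets, 6 rose, 1 fell and 2 did not pass, with a median of 0.21. That median was 0.31 with the smaller normexp offset and 0.49 with the software's own ratio. The 0.49 is the value of Vegfa, whose probes disagree. Median centring gave 7 higher and 1 lower, and the spike-in correction 1 higher and 7 lower. Car12, a membrane carbonic anhydrase that acidifies the outside of cells, had 1248 and 1204 in the Chuk-deleted channels, against 663 and 557 in the wild-type channels. Each Chuk-deleted value was well above both wild-type values, at log2 ratios of 0.91 and 1.11 (mean 1.01 ± 0.14, 2.02-fold higher, adjusted p = 7.96e-05). Car9, its tightly oxygen-controlled relative, was near background, with 121 and 126 in the Chuk-deleted channels, against 107 and 106 in the wild-type channels (0.21, adjusted p = 0.0143). Its wild-type channel was well above background on 1 of 2 arrays. Car9 stood at 0.72 with the software's own ratio and turned to -0.32 under median centring brought to the loess median of all genes.

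P4ha1, the catalytic subunit of collagen prolyl hydroxylase, had 1782 and 2791 in the Chuk-deleted channels, against 1047 and 1411 in the wild-type channels. Both Chuk-deleted values exceeded both wild-type values (mean 0.88 ± 0.15, 1.84-fold higher, adjusted p = 0.000138), and its other tested probe rose by 0.60. It stood at 0.11 and no longer passed after the spike-in correction. P4ha2, the second such subunit, rose by 0.21 (adjusted p = 0.0158), with 7792 and 9926 in the Chuk-deleted channels, against 6962 and 8266 in the wild-type channels, whose ranges overlapped, and it did not pass with the software's own ratio. Since fibroblasts make collagen, their markers are given here. Of 10 fibroblast markers, all tested, 8 rose and 1 fell, and their summed intensity was 213098 and 201045 in the Chuk-deleted channels, against 124700 and 100900 in the wild-type channels. Vim made up 93690 and 83890 of the Chuk-deleted sums, and 59500 and 48260 of the wild-type sums. The marker that fell was Dcn (-0.60), and Lum did not pass (0.15). After the spike-in correction 4 of the fibroblast markers were higher and 3 lower, and their part in the P4ha1 ratio was not tested.

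Adm, the vasodilating peptide adrenomedullin, had 24510 and 18900 in the Chuk-deleted channels, against 17370 and 13000 in the wild-type channels (mean 0.52 ± 0.03, adjusted p = 0.00035). Both Chuk-deleted values were above both wild-type values. Ddit4, which restrains mTORC1 under low oxygen and stress, rose by 0.31 ± 0.03 (adjusted p = 0.00282), with 57220 and 71810 in the Chuk-deleted channels, against 46890 and 57270 in the wild-type channels, ranges that overlapped slightly. Vegfa, the main inducer of blood vessel growth, gave no call on the brightest probe, with 2860 and 2329 in the Chuk-deleted channels, against 2725 and 2320 in the wild-type channels (0.04, adjusted p = 0.560). Its 2 other tested probes rose, by 0.43 and 0.46 (adjusted p = 0.000954 and 0.000528), so the probes disagree. With the software's own ratio Vegfa stood at 0.49, where the brightest probe was chosen anew and may be another one. Bnip3, a mitophagy receptor, had 1057 and 974 in the Chuk-deleted channels, against 1103 and 953 in the wild-type channels, which did not pass (-0.01, adjusted p = 0.826).

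Ndrg1 went against the other hypoxia targets that passed. It encodes a cytoplasmic protein that is induced by hypoxia and also by differentiation. It had 10680 and 8531 in the Chuk-deleted channels, against 24900 and 25730 in the wild-type channels. Both Chuk-deleted values lay far below both wild-type values, at log2 ratios of -1.22 and -1.59 (mean -1.41 ± 0.26, 2.65-fold lower, adjusted p = 8.06e-05). Suprabasal keratinocyte markers moved with it, with a summed intensity of 3444 and 2022 in the Chuk-deleted channels, against 11890 and 10610 in the wild-type channels. Lor made up 8473 and 7275 of the wild-type sums. All 7 fell, from -2.82 for Lor to -0.25 for Krt10, and 4 of them were well above background in both channels on both arrays. Their part in the Ndrg1 ratio was not tested. After median centring 6 of these 7 were lower and 1 higher. Melanocyte markers also fell, 5 of 5 tested of 6, with summed intensities of 19430 and 17030 in the Chuk-deleted channels, against 47490 and 48630 in the wild-type channels. Of 7 macrophage and Langerhans cell markers, 5 were tested and 4 fell, with summed intensities of 2993 and 2784 in the Chuk-deleted channels, against 4299 and 4197 in the wild-type channels. Of the 3 that were well above background in both channels on both arrays, 2 fell, and Cd68 did not pass (0.13).

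Other genes of the same pathways, listed by function, went both ways. Over 9 lists with 133 genes, 111 were tested, of which 35 rose and 37 fell, with a median of 0.02. Of all tested genes 32.7% rose and 28.4% fell, also with a median of 0.02. The pooled counts lie near these shares, and the counts of each list below are to be read against them. Of the other glucose and fructose transport genes, 6 of 9 tested rose and 2 fell. Of the 6 that were well above background in both channels on both arrays, 3 rose and 2 fell. The fructose transporter Slc2a5 had 2445 and 2700 in the Chuk-deleted channels, against 1282 and 1327 in the wild-type channels (0.98 ± 0.07), and Slc2a12 rose by 0.93 ± 0.11. The sodium-coupled glucose transporter Slc5a1 fell by 1.40 ± 0.50, and Arrdc4, an arrestin that restrains glucose uptake, fell by 1.28 ± 0.23. Median centring gave 6 higher and 2 lower, but 2 higher and 4 lower when brought to the loess median of all genes, and the spike-in correction gave none higher and 7 lower. Relative to the median of all genes the list's median lay at 0.30 under loess and at -0.09 under median centring.

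The other hypoxia-induced genes were lower more often than higher, with 14 of 23 tested that fell and 7 that rose (median -0.34), while median centring gave 12 higher and 4 lower and the spike-in correction 1 higher and 20 lower. Flt1, a receptor for VEGF, had 2850 and 2804 in the Chuk-deleted channels, against 10340 and 12400 in the wild-type channels (-2.00 ± 0.20, adjusted p = 2.46e-05). Flt1 is also an endothelial gene, and of 7 other endothelial markers 2 were tested, of which 1 rose and 1 fell, with summed intensities of 1255 and 1276 in the Chuk-deleted channels, against 1136 and 1145 in the wild-type channels. Angptl4, an inhibitor of lipoprotein lipase, fell by 1.32 ± 0.17. Loxl2, a collagen cross-linking enzyme, rose by 0.96 ± 0.08. Relative to the median of all genes, the list's median lay at -0.36 under loess and at -0.31 under median centring. Of the other oxygen-sensing genes and HIF partners, 1 of 8 tested rose, the partner subunit Arnt (0.16, adjusted p = 0.0355), and none fell, while median centring gave 7 higher and the spike-in correction all 8 lower. The Arnt call was lost with the smaller normexp offset, with the software's own ratio, without the filter on dim probes and with all probes averaged.

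The remaining glycolytic isoforms and gluconeogenic genes gave 1 of 7 that rose and 3 that fell. Pgam2, the muscle form of the mutase, fell by 1.61 ± 0.52, Pgam5 by 0.23 and Eno3 by 0.17, and Pck2, a mitochondrial enzyme of gluconeogenesis, rose by 0.49 ± 0.13. In the pentose phosphate pathway, a side branch that makes NADPH, 1 of 10 rose and 2 fell. Its first enzyme, G6pdx, had 4426 and 5859 in the Chuk-deleted channels, against 6600 and 9445 in the wild-type channels (-0.63 ± 0.08), Taldo1 fell by 0.29, and H6pd rose by 0.43. Of the pyruvate dehydrogenase and carrier genes, 3 of 10 rose and 2 fell. They included the monocarboxylate transporter Slc16a7 (1.04 ± 0.11), the carboxylase Pcx (0.47 ± 0.09), and the dehydrogenase subunits Pdhb (-0.30 ± 0.08) and Dld (-0.18 ± 0.04). Median centring gave 5 higher and 1 lower for the isoforms, 9 higher and none lower for the pentose phosphate pathway and 10 higher and none lower for the pyruvate list. Brought to the loess median of all genes it gave 2 higher and 3 lower for the isoforms, 5 higher and 2 lower for the pentose phosphate pathway and 5 higher and none lower for the pyruvate list. The spike-in correction gave none higher and 7 lower for the isoforms, none higher and 10 lower for the pentose phosphate pathway and 1 higher and 9 lower for the pyruvate list. Eno3, Taldo1 and Dld did not pass with the software's own ratio, and Eno3, Pdhb and Dld did not pass under median centring brought to the loess median.

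Insulin and IGF signalling genes rose in 10 and fell in 7 of 20 tested. The largest ratios of the list were those of 4 IGF-binding proteins, which hold IGF outside the cell, while Igfbp4, another of them, rose by 0.39. Igfbp5 had 3749 and 3716 in the Chuk-deleted channels, against 1022 and 723 in the wild-type channels (2.12 ± 0.34, adjusted p = 4.75e-05). Igfbp6 rose by 1.49 ± 0.23 and Igfbp2 by 1.31 ± 0.21, and Igfbp3 fell by 1.84 ± 0.59. Of the other glycogen genes, 3 of 11 rose, among them Phka2 (0.45) and Gaa (0.44), and 3 fell, among them Pgm2 (-0.41) and Ugp2 (-0.36). In the AMPK, TSC and mTORC1 list, which senses energy, 3 of 13 rose, among them Prkab2 (0.90 ± 0.07) and Sesn1 (0.38), and 4 fell, among them Sesn3 (-0.31) and Rheb (-0.25). Sesn1 did not pass with all probes averaged, and Rheb did not under median centring brought to the loess median. Median centring gave 14 higher and 3 lower for the insulin list, 10 higher and none lower for glycogen and 13 higher and none lower for the energy list. The spike-in correction gave 4 higher and 15 lower for the insulin list, none higher and 11 lower for glycogen and none higher and 12 lower for the energy list.

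**Figure D4:**
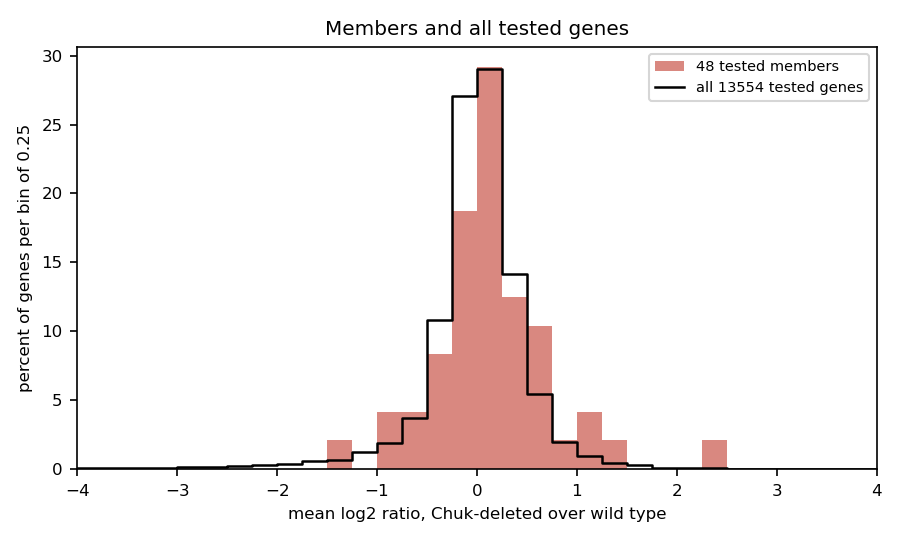
Percent of genes per bin of mean log2 ratio, for the 48 tested members (bars) and all 13554 tested genes (line). The members' median lies at 0.15, against 0.02 for all tested genes (0.0503 for the members with all probes of a gene averaged), with single members out at 2.46 and -1.41.

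The members that stood firm against the scaling of the arrays were few. Under each of the 10 alternatives that kept both arrays, 4 members that rose stayed higher and past the threshold (Slc2a1, Slc2a4, Slc16a3 and Car12), and 4 that fell stayed lower (Ndrg1, Aldoc, Irs1 and Pdk4, where Pdk4 was left out by the filter on both channels). Changes can also be set against the median of all genes under the same setting. On that scale all 10 members that fell and 19 of 24 that rose lay on the same side of the median under every setting, the exceptions being Slc2a8, Pfkfb2, Egln1, Eno2 and Car9. Like shares over all tested genes are not given, for these counts or for the 4 and 4 above. Against that median the spike-in correction repeats loess, because it shifts all genes alike. Median centring brought to the loess median repeats median centring in the same way. Sameness within these pairs was fixed in advance and adds no support. The filters on dim probes do not change the ratio of a kept probe. Averaging over probes does not change a gene with a single tested probe. Under these settings and with outlier spots kept, Slc2a1 stayed at 1.161 and Slc2a4 at 2.458, which adds no support either. Slc2a4 then ranged from 2.43 to 2.58, Slc16a3 from 1.43 to 1.65, Slc2a1 from 1.06 to 1.5 and Ndrg1 from -1.43 to -1.20.

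**Figure D5:**
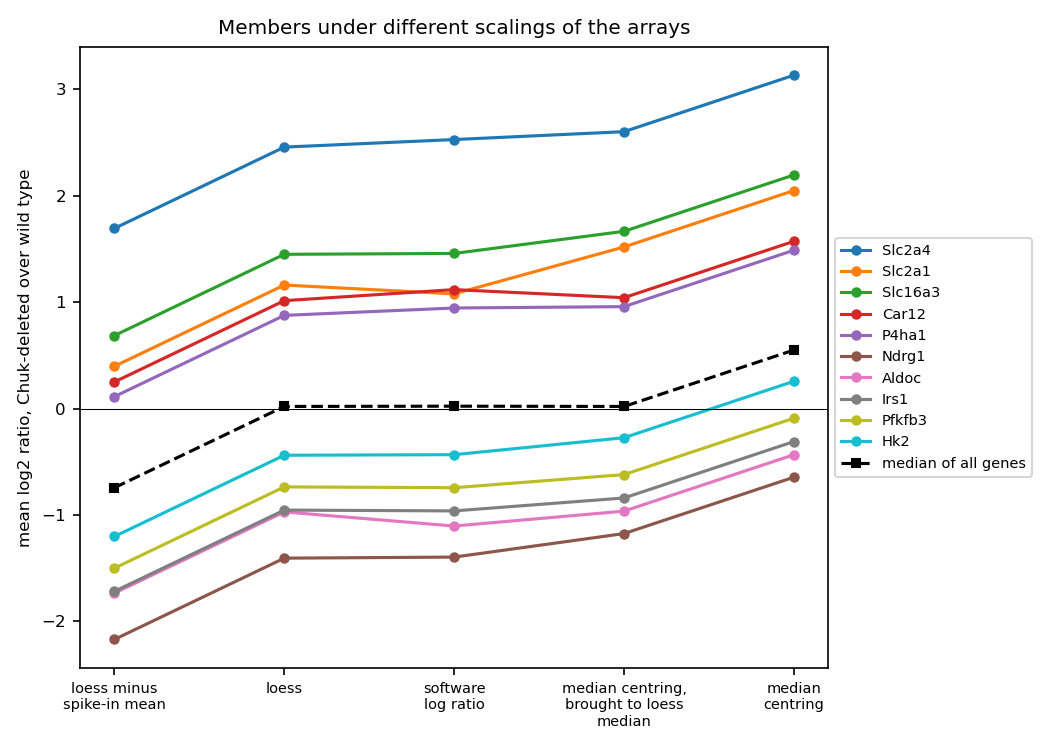
Mean log2 ratio of 10 members, chosen after their values were seen, under 5 scalings of the arrays, with the median of all tested genes as a dashed line. Each line, like the dashed one, lies higher under median centring and lower after the spike-in correction than under loess, and Slc2a4, Slc2a1, Slc16a3, Car12 and P4ha1 stay above the dashed line while the other 5 stay below it. Distances to the dashed line are the same by construction under loess and the spike-in correction, and under both forms of median centring.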

How the data were processed

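RNA of Chuk-deleted (Cy5) and wild-type (Cy3) mouse keratinocytes was measured on 2 two-colour Agilent arrays without a dye swap. Per the file headers, the scanner output was written by Feature Extraction (version 9.1.3.1). Its deposited spot intensity is the mean pixel brightness per channel, with the local background median beside it and no correction. The deposited log10 ratio is that of processed Cy5 over Cy3, background subtracted and dye normalised by the software, per the file headers. The deposited p-value of that ratio comes from the software's error model within an array and was not used. The deposited flags of 0 or 1 mark spots well above background or outlying. The series matrix equalled the log10 ratio to within 0.005 for every spot, with a median of 0 per array.

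With limma 3.58.1 in R 4.3.3 (data.table, version 1.17.8), background was corrected by normexp (offset 50) and ratios were normalised by loess, control spots at weight 0. Outlier spots (51 and 18) were left out and spots of a probe averaged. A probe was kept if 1 or both of its channels stood well above background on each array, which left 23519 of 41174 probes, and lmFit and eBayes tested their mean ratio against 0 (two-sided, Benjamini-Hochberg over all tested probes, threshold 0.05, 1 residual and 5.16 prior degrees of freedom). Channel intensities are those after Aquantile scaling. Names came from RefSeq GRCm38.p6, 16129 through accessions, 4721 through symbols and 429 as filed, with 2240 unnamed. The arrays shared a slide and a scan. The scripts were tested on simulated data.

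The members and all lists were chosen with earlier results of these data known. All members may be named. Per-array values are given for those past the threshold or among the 3 brightest of their role, and from each other list up to 4 passing genes with the largest change are named. The value of 1 gene that this rule names is not reported here.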

Additional observations from a re-analysis of the deposited data

How the results depend on the processing

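No paired analysis was possible because a single group has no second group for a replicate block. The ratio within an array already pairs the genotypes. Leaving out an array leaves no residual degree of freedom, so these are values with no test. The count of members 2-fold higher then ran from 2 to 4, the count 2-fold lower from 1 to 2 and the median from 0.12 to 0.14, and without replicate 1 the 2-fold sets were the larger ones. Background correction, the filter, outlier flags and the use of all probes moved neither count of calls by over 1.5 times. With a normexp offset of 10 and with the software's ratio 2 members were 2-fold lower on both arrays. The median was 0.14 with the offset of 10, with no filter and with the filter on both channels, and 0.0503 with all probes of a gene averaged.

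The scaling of the arrays decided most calls. Median centring gave 40 members higher and 4 lower, 9 and 0 at 2-fold, and a median of 0.69. The spike-in correction gave 4 higher and 39 lower, 1 and 8 at 2-fold, and a median of -0.61. The spike-in correction shifts all genes alike. Median centring without loess does not: Slc2a1 stood at 2.05, against 1.16 under loess, and Car9 stood at 0.21 under both. The cause was not tested.

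Reversed means here that the sign changed, and a listed gene passed the threshold under loess, under the alternative or under both. Reversed under median centring were Slc2a3 (0.36), Hk1 (0.64), Hk2 (0.26), Tpi1 (0.67), Pgam1 (0.77), Eno1 (0.20), Pkm2 (0.48), Ldha (0.86), Ldhb (0.61), Pdk3 (0.44), Pfkfb4 (0.31) and Bnip3 (0.56). Of these only Hk2, Eno1, Pkm2 and Pfkfb4 had passed under loess, and Eno1 did not pass after the change. Outside the members it reversed Sesn3 (0.25), Rheb (0.49), Pgm2 (0.0053), Ugp2 (0.25), Pgam5 (0.33), Eno3 (0.38), G6pdx (0.0616), Taldo1 (0.54), Pdhb (0.37) and Dld (0.48). Pgm2 and G6pdx did not pass after it. Median centring brought to the loess median reversed Pgam1 (0.24), Ldha (0.33), Car9 (-0.32) and Taldo1 (0.0145, not past the threshold). Averaging over probes reversed Pfkfb2 (-0.0218, not past the threshold).

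The spike-in correction reversed Slc2a6 (-0.14), Slc2a8 (-0.47), Gpi1 (-0.63), Pfkl (-0.72), Pfkm (-0.345), Pfkp (-0.33), Aldoa (-0.58), Gapdh (-0.41), Pgk1 (-0.73), Eno2 (-0.59), Pdk1 (-0.215), Pfkfb1 (-0.16), Pfkfb2 (-0.59), Slc16a1 (-0.44), Vegfa (-0.73), Car9 (-0.55), Egln1 (-0.60), Egln3 (-0.71), Adm (-0.25), Ddit4 (-0.46), Hif1a (-0.58), Epas1 (-0.17), P4ha2 (-0.55), Gys1 (-0.74) and Pygl (-0.58). Of these members, Gpi1, Pfkl, Pgk1, Vegfa, Egln3 and Gys1 had not passed under loess. Slc2a6, Pdk1, Pfkfb1 and Epas1 did not pass after the correction. Outside the members it reversed the brighter Chuk probe (-0.026, not past the threshold), Sesn1 (-0.38), Phka2 (-0.31), Gaa (-0.32), Pck2 (-0.27), Arnt (-0.61), H6pd (-0.33) and Pcx (-0.29). The alternatives for Chuk and for the other pathway lists were added after seeing the data.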
